A study of Arabidopsis thaliana with 18 samples.

Results

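The hypocotyl, the seedling stem, was set against the cotyledons, the seed leaves, in wild-type Arabidopsis thaliana seedlings kept in the dark. The comparison rests on 6 RNA sequencing libraries, 3 of WT hypocotyl and 3 of WT cotyledon, out of 18 libraries in the series. A gene belongs to it if it reached at least 1 FPKM (fragments per kilobase of exon, scaled to the library's read total) in at least 3 of these 6 libraries, which held for 17874 of the 26073 genes listed. WT is the accession Col-0, and all seedlings were 4 d old, grown without light at 22 °C, with 3% sucrose added to the MS medium. The remaining groups used here are hypocotyls and cotyledons of pifq, Col-0 seedlings that lack PIF1, PIF3, PIF4 and PIF5, and apical hooks of WT, again with 3 libraries each. Replicates are numbered in the labels, which do not state separate cultures, so p-values measure only the spread between libraries. That spread, and each standard error, is pooled over all 6 groups of the series. It includes apical hooks of pifq, whose values are not given here. How organs were cut, how many seedlings were pooled and how poly(A) RNA or ribosomal RNA was handled are not given in the sources used here.

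In darkness a seedling lives on its seed reserves and puts its growth into the hypocotyl, whose cells elongate by loosening and rebuilding their walls under turgor. The cotyledons stay folded and small, hold the oil and protein reserves, and make etioplasts that wait for light to build chloroplasts. Phytochrome-interacting factors (PIFs), basic helix-loop-helix transcription factors, keep this dark program in place, and auxin, brassinosteroid and gibberellin drive hypocotyl growth.

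The read or read pair total behind a library ran from 13851955 to 18018643 in hypocotyls and from 12955815 to 17463712 in cotyledons. A gene with 1 kb of exon and 1 read is therefore listed at 0.0555 to 0.0722 FPKM in hypocotyls and at 0.0573 to 0.0772 FPKM in cotyledons. Of the 17874 genes, 17699 are nuclear, 115 chloroplast-encoded and 34 mitochondrion-encoded, and 26 are ENSRNA entries without a match in the annotation. At least 1 FPKM was reached in all 6 libraries by 14659 genes, in all 3 hypocotyl and no cotyledon library by 1238, and in all 3 cotyledon and no hypocotyl library by 511. The last 2 sets passed the filter through the organ where they are high, so they had to differ.

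Some libraries stood apart. Of 23 seed storage, oil body and late-embryo genes, 18 were highest among hypocotyl libraries in replicate 2. The list's sum was 494, 554 and 327 FPKM in hypocotyls and carried mostly by LEA4-5, a late-embryo protein, at 447, 322 and 272 FPKM, which, like OLEO3, was highest in replicate 1 or 3 and not in replicate 2. CRA1, a seed storage globulin, was at 0.0298, 44.1 and 0.0930 FPKM in hypocotyls and at 0.745, 8.45 and 0.737 FPKM in cotyledons. OLEO2, an oil body coat protein, was at 2.28, 48.0 and 3.56 FPKM in hypocotyls and at 11.1, 20.2 and 19.1 FPKM in cotyledons. The same hypocotyl library had the largest mitochondrion-encoded sum, 15436 FPKM, against 3977 and 8337 FPKM in the other 2. Cotyledon replicate 3 had the highest level of many genes that mark the hypocotyl, among them AXR3 and CASP1 below. Counts of genes higher and lower are therefore also given without these libraries.

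Xylem markers and most stomatal markers followed the labels, though 2 stomatal markers were higher in the hypocotyl. Seed storage, shoot meristem, epidermis and phloem markers gave calls in both directions, the phloem list with 7 higher and 1 lower. All these lists were chosen with earlier results of these data known. Of 16 tested genes of the stomatal lineage and guard cells, which hypocotyls have in few cells, 14 were lower in the hypocotyl, and their summed level, including members under the filter, was 55.8 to 63.1 FPKM in hypocotyls and 170.0 to 183.7 FPKM in cotyledons. Xylem markers summed to 802 to 874 FPKM in hypocotyls and 92.9 to 115.5 FPKM in cotyledons. Of 15 root and root hair markers 3 passed the filter, PRP3, PIN2 and GPAT5. All 3 were higher in the hypocotyl, but none reached 1 FPKM in a cotyledon library, so they had to differ. The list summed to 17.5 to 50.1 FPKM in hypocotyls and 1.11 to 1.91 FPKM in cotyledons. The root stem cell gene WOX5 stood at 0.264, 0.618 and 0.220 FPKM in hypocotyls and the root cap gene SMB at 0.212, 0.103 and 0.165 FPKM, both under the filter. PIN2, a root auxin efflux carrier, was at 8.41, 7.30 and 8.79 FPKM in hypocotyls and 0.892, 0.63 and 0.864 FPKM in cotyledons (2.35 ± 0.18, adjusted p 4.31e-09), and GPAT5, of suberin synthesis, at 3.00, 5.45 and 1.33 FPKM in hypocotyls and 0, 0.144 and 0.143 FPKM in cotyledons. PRP3, a root hair wall protein, was at 26.8, 25 and 3.12 FPKM in hypocotyls and 0, 0.804 and 0.281 FPKM in cotyledons, with hypocotyl replicate 3 well below the other 2, and it lost its call in limma-voom (adjusted p 0.0673). The part of root or collar tissue in the hypocotyl results was not tested.

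Most genes tested differed in RNA level between the hypocotyl and the cotyledon, many of them by less than 2-fold. In limma's test on log2(FPKM + 1), 6627 genes were higher in the hypocotyl (37.1%) and 7043 were lower (39.4%) at a Benjamini-Hochberg adjusted p under 0.05, leaving 4204 not called. Together 76.5% of the genes tested were called, and the 3 hypocotyl values lay wholly above or below the 3 cotyledon values in 76.7%. Without hypocotyl replicate 2 the counts were 6467 higher and 6965 lower, and without cotyledon replicate 3 they were 6349 and 6857. The median difference over all genes was -0.05. Differences are given throughout as hypocotyl minus cotyledon on the scale of log2(FPKM + 1), with the standard error of the fit, and this scale understates the change of low genes. With so many genes called, a list is read against these background shares. A list member under 1 FPKM in 1 organ passed the filter through the other, which favours a difference. Loci that overlap another annotated gene, here among others PER64, CASP5, FRA8, XCP1, PSAH1, CHLP, FC1, XTH15, ROT3, CHS, TUB1, PYK10 and PIF1, can hold reads of that neighbour. In bulk samples fewer cells of a type and less RNA per cell cannot be told apart.

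**Figure D1:**
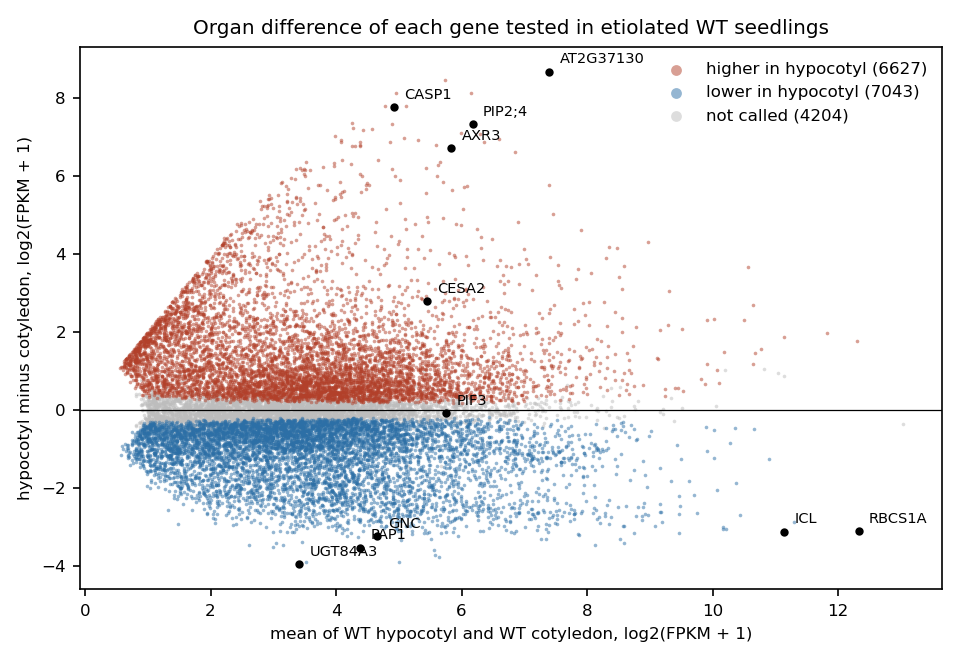
Difference of each of the 17874 genes (vertical axis, hypocotyl minus cotyledon, log2(FPKM + 1)) against its mean level in both organs (horizontal axis, log2(FPKM + 1)); red points are the 6627 genes higher in hypocotyl, blue points the 7043 lower and grey points the 4204 not called. Rises reach 8.66, while falls end at -3.95.

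The 2 directions differed in reach more than in number. Differences of at least 2-fold were called in 3538 genes higher and 3325 lower, and of at least 4-fold in 1461 (8.17%) and 1106 (6.19%), or 1541 and 1216 without hypocotyl replicate 2 and 1523 and 1155 without cotyledon replicate 3. At 8-fold the counts parted, with 641 genes higher (3.59% of genes tested) and 71 lower (0.397%). With a pseudocount of 0.1, which shrinks low genes less, these counts were 1388 higher and 311 lower, and with limma-voom on recovered reads 1434 and 350. Without hypocotyl replicate 2 they were 656 and 91, and without cotyledon replicate 3 they were 674 and 86. Among nuclear genes called higher the 99th percentile of the difference was 5.74, and among those called lower it was -2.97. The 641 genes held 15.5%, 13.2% and 15.0% of all FPKM in the hypocotyl libraries, against 0.56%, 0.537% and 0.772% in the cotyledon libraries. The 1023 nuclear genes lower by at least 4-fold held 4.3%, 4.84% and 4.43% in hypocotyls, against 26.7%, 28.7% and 27.4% in cotyledons.

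**Figure D2:**
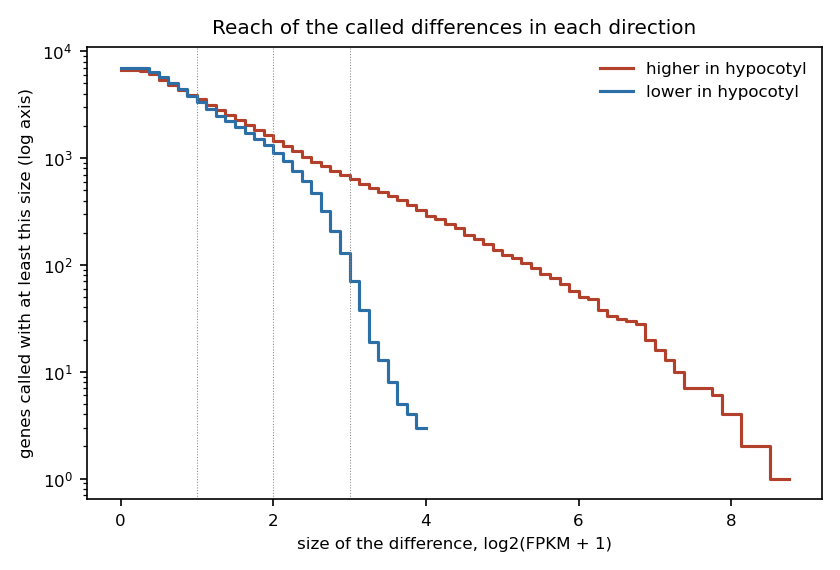
Number of genes called with at least a given size of difference (log vertical axis) against that size (horizontal axis, log2(FPKM + 1)), for genes higher (red) and lower (blue) in WT hypocotyl; dotted lines mark 2-, 4- and 8-fold. The curves run together up to about 4-fold and part beyond it, with 641 genes higher and 71 lower at 8-fold.

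As shares of the level in the other organ, cotyledon genes stayed detectable in the hypocotyl. Among 2096 nuclear genes with a mean of at least 50 FPKM in cotyledons, 0 had a hypocotyl mean under 5% of the cotyledon mean, the lowest share was 7.79% and the 1st percentile was 11.5%. Among 2111 with at least 50 FPKM in hypocotyls, 169 had a cotyledon mean under 5% of the hypocotyl mean, 67 were under 1%, and the lowest share was 0.163%. In pifq, 7 of 1906 genes with at least 50 FPKM in cotyledons were under 5% in hypocotyls, and 103 of 2225 with at least 50 FPKM in hypocotyls were under 5% in cotyledons. In WT the photosynthesis lists sat close to this lower edge. The median hypocotyl share of the cotyledon level was 15.6% for 20 antenna genes, 15.9% for 31 photosystem genes and 15.0% for 19 Calvin cycle genes. Whether the sampled hypocotyls carried cotyledon tissue was not tested.

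The 12 largest rises included genes of the wall, water channels and the endodermal barrier. AT2G37130 (chromosome 2, 15597921 to 15600154), a peroxidase of the class that oxidises wall phenolics, had 3276, 3269 and 3395 FPKM in hypocotyls and 4.54, 7.83 and 10.2 FPKM in cotyledons. Its difference was 8.66 ± 0.77 with an adjusted p of 2.99e-08. ATPMEPCRD (AT2G43050, chromosome 2, 17902370 to 17904443), of the pectin methylesterase family that trims wall pectin, had 1069, 753 and 1009.6 FPKM in hypocotyls and 1.02, 0.823 and 4.17 FPKM in cotyledons, a difference of 8.45 ± 0.79 (adjusted p 5.64e-08). The proline-rich extensin-like gene AT2G43150 stood at 1029, 1349 and 1010.2 FPKM in hypocotyls and 1.15, 3.48 and 5.84 FPKM in cotyledons. Every hypocotyl library lay above every cotyledon library, which the choice of these genes required.

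CASP1 (AT2G36100, chromosome 2, 15159591 to 15160799) builds the membrane scaffold on which the endodermis lays its Casparian strip. It had 481, 329 and 463 FPKM in hypocotyls and 0.171, 0.831 and 2.47 FPKM in cotyledons, a difference of 7.75 ± 0.81 (adjusted p 2.13e-07), and its locus overlaps a gene on the other strand whose reads this kit cannot separate. The dirigent-like gene AT3G55230 had 418, 341 and 418 FPKM in hypocotyls and 0.0665, 0.896 and 1.83 FPKM in cotyledons. CYP705A5, a cytochrome P450 of the thalianol pathway, had 259, 187 and 254 FPKM in hypocotyls and 0.121, 0.0302 and 1.53 FPKM in cotyledons. All 3 were highest among cotyledon libraries in replicate 3, and the separation of the organs was again required by the choice. The other genes among the 12 largest rises were MLP34 (8.11) and MLP43 (7.79), of the major latex protein family, the aquaporins PIP2;4 (7.33) and TIP2;3 (7.20), NIC3 (7.31), a nicotinamidase, and the cytochrome P450 CYP82F1 (7.22).

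The 12 largest falls included genes of phenolic metabolism. UGT84A3 (AT4G15490, chromosome 4, 8852656 to 8854706), which puts glucose on hydroxycinnamic acids, had 1.3, 2.64 and 1.27 FPKM in hypocotyls and 36.7, 41.5 and 42.9 FPKM in cotyledons, a difference of -3.95 ± 0.27 (adjusted p 1.32e-09). PAP1, the MYB factor that switches on anthocyanin synthesis, had 2.85, 7.42 and 5.63 FPKM in hypocotyls and 65.5, 75.0 and 63.7 FPKM in cotyledons (-3.52 ± 0.25, adjusted p 2.58e-09). MYB111, a MYB factor of flavonol synthesis, had 0.612, 1.24 and 0.708 FPKM in hypocotyls and 20.4, 21.4 and 15.9 FPKM in cotyledons. No hypocotyl library reached the level of any cotyledon library, which the choice of these genes required.

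ELIP2, an early light-induced protein of the thylakoid, had 42.2, 171 and 59.4 FPKM in hypocotyls, with replicate 2 the highest, and 901, 801 and 828 FPKM in cotyledons (-3.46 ± 0.48, adjusted p 6.05e-06). RR16, a type-A response regulator of cytokinin signalling, had 1.23, 0.904 and 2.03 FPKM in hypocotyls and 27.4, 23.6 and 26.1 FPKM in cotyledons (-3.51). The 12 largest falls also held AT1G80130, a tetratricopeptide repeat protein (-3.58), the noncoding RNA AT2G08760 (-3.46), the receptor-like protein RLP33 (-3.41), DOGT1, a glucosyltransferase that acts on brassinosteroids (-3.37), AT1G73120 (-3.29) and AT5G27889 (-3.29).

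MIR825, a microRNA precursor, fell by the second largest amount. It is shown because it is the only microRNA locus among the 12 largest falls. It had 2.98, 0.776 and 2.49 FPKM in hypocotyls and 41.1, 41.3 and 43.1 FPKM in cotyledons, a difference of -3.88 ± 0.35 (adjusted p 4.33e-08). Its locus overlaps AT2G26220 on the same strand, so precursor reads and reads of that neighbour cannot be told apart, and the mature microRNA was not measured. The mature sequence read from the RefSeq TAIR10.1 genome (chr2:11159774-11159794, plus strand) is given with its seed, bases 2 to 8, in capitals.
miR825: tTCTCAAGaaggtgcatgaac

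The most abundant transcripts also split by organ. In hypocotyls the highest nuclear genes included TIP1;2, a vacuolar aquaporin, at 10356, 7839 and 9784 FPKM against 2371, 2683 and 3158 FPKM in cotyledons (1.77 ± 0.16, adjusted p 3.83e-08). PYK10, the beta-glucosidase of endoplasmic reticulum bodies, had 7192, 6632 and 7839.8 FPKM in hypocotyls and 1849.7, 1860.0 and 1777 FPKM in cotyledons, and its partner lectin PBP1 had 3421, 2930.3 and 3322 FPKM and 679, 645 and 616 FPKM. CAT3, a catalase, had 5133, 5605 and 5230.1 FPKM in hypocotyls and 381, 399 and 494 FPKM in cotyledons. For all 4 the hypocotyl libraries lay wholly above the cotyledon libraries. In cotyledons the highest level was that of RBCS1A, and GER3, a germin-like protein, had 489.9, 311 and 447 FPKM in hypocotyls and 2844, 3568 and 3744 FPKM in cotyledons (-3.04 ± 0.31, adjusted p 1.39e-07). TCTP, a growth-related protein, had 1349.7, 1148 and 1222 FPKM in hypocotyls and 2882, 2921 and 3020.1 FPKM in cotyledons (-1.25 ± 0.15, adjusted p 7.64e-07). LTP2, a lipid transfer protein of the epidermis, was among the 8 highest in both organs, at 7203, 7232 and 7612 FPKM in hypocotyls and 7644, 10238 and 10638 FPKM in cotyledons, and was not called (adjusted p 0.0676). The organs did not overlap, and LTP2 was called lower in 3 alternatives (adjusted p 0.0176 to 0.0439). Of other abundant genes that were not called, SAMDC, a polyamine synthesis enzyme, had 1150.3, 1095 and 1077 FPKM in hypocotyls and 978, 987 and 1109.5 FPKM in cotyledons.

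**Figure D3:**
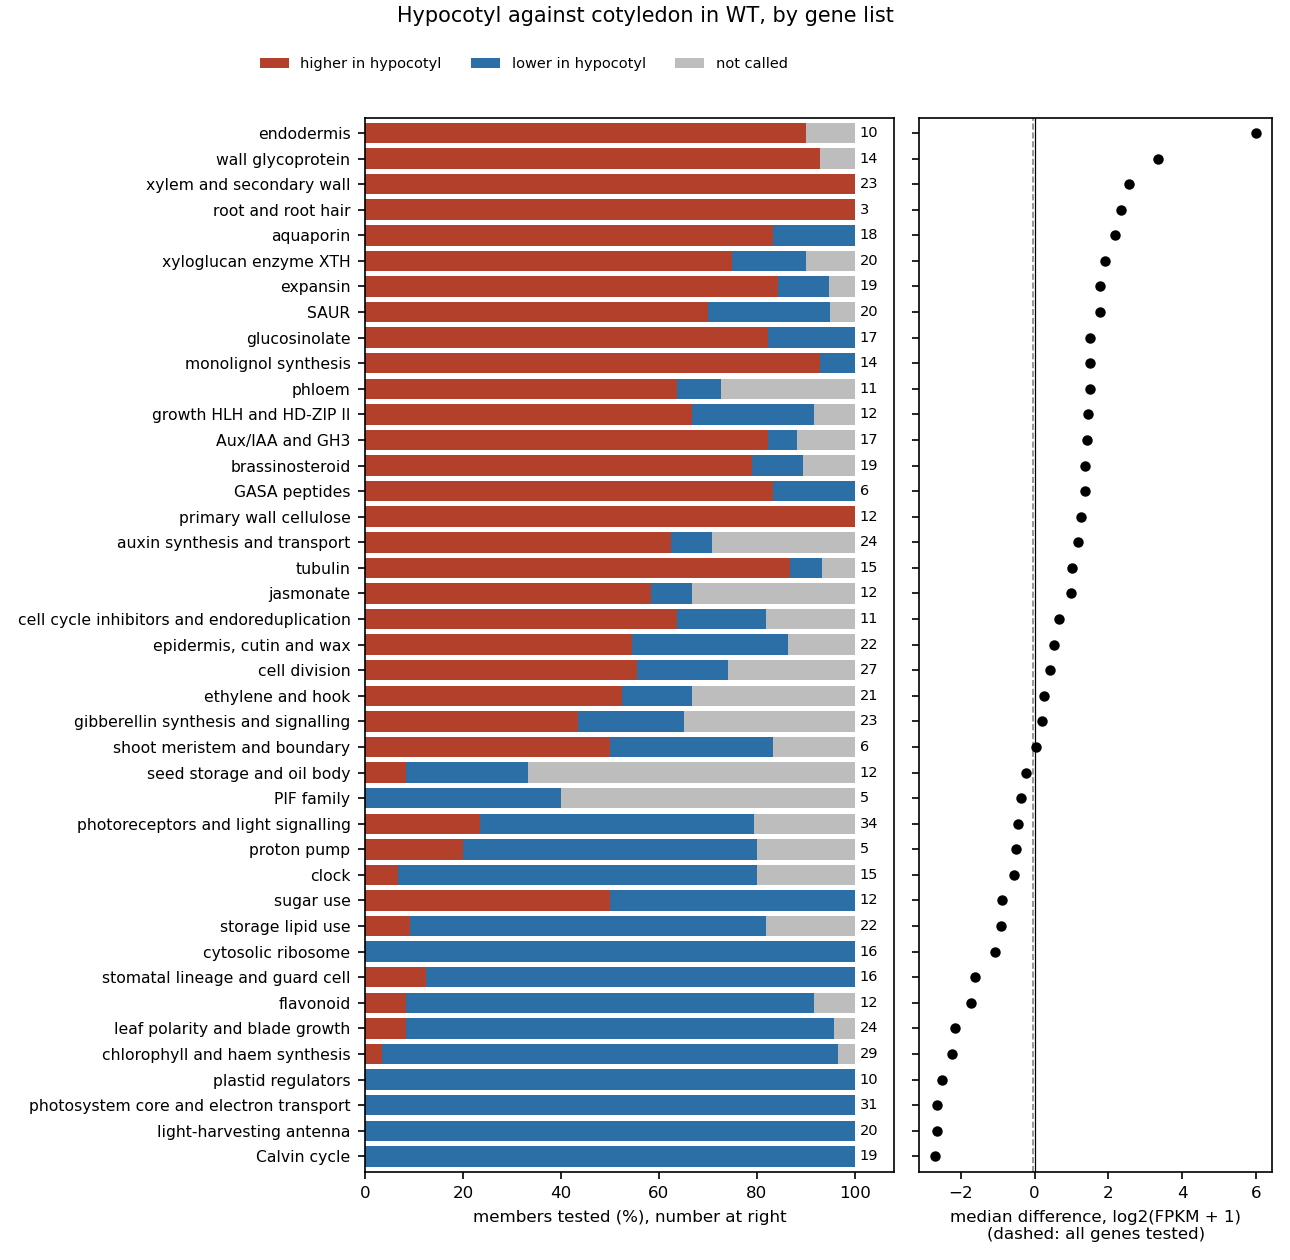
Share of the tested members of each gene list that were higher in WT hypocotyl (red), lower (blue) or not called (grey), with the number tested at the right, beside the median difference of the list (log2(FPKM + 1), the dashed line is the median of all genes, -0.05). The endodermis list, with members that passed the filter mainly through the hypocotyl, has the highest median, 6.0, and the Calvin cycle list the lowest, -2.69.

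Genes that loosen and build the primary wall were mostly higher in the hypocotyl. Of 19 tested expansins, which let wall polymers slide, 16 rose and 2 fell, with a median of 1.78. EXPA11 had 380.3, 228 and 314 FPKM in hypocotyls and 18.1, 10.9 and 54.7 FPKM in cotyledons (3.69 ± 0.40, adjusted p 3.82e-07), and EXPA8 had 107, 79.8 and 143 FPKM and 6.82, 3.27 and 18.8 FPKM. EXPA10 ran the other way, at 19.3, 43.3 and 25.1 FPKM in hypocotyls and 96.9, 92.3 and 100.5 FPKM in cotyledons (-1.77 ± 0.18, adjusted p 1.51e-07). EXPA4 was not called, with overlapping values of 77.4, 90.6 and 77.6 FPKM in hypocotyls and 59.7, 77.1 and 91.6 FPKM in cotyledons.

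Of 20 tested XTH genes, which cut and rejoin xyloglucan, 15 rose and 3 fell, with a median of 1.90. XTH17 had 206, 87.0 and 210.1 FPKM in hypocotyls and 1.49, 0.836 and 4.14 FPKM in cotyledons (5.77 ± 0.44, adjusted p 5.51e-09), and XTH30 and XTH7 rose by 5.46 and 4.43. For XTH17 hypocotyl replicate 2 was the lowest of the 3 and still above every cotyledon library. XTH9 had 17.6, 12.5 and 13.9 FPKM in hypocotyls and 93.6, 87.9 and 65.9 FPKM in cotyledons (-2.41 ± 0.23, adjusted p 5.78e-08), and XTH15 had 367, 143 and 263 FPKM in hypocotyls and 959, 860.2 and 996 FPKM in cotyledons (-1.96 ± 0.30, adjusted p 2.02e-05). For XTH9, XTH15 and XTH17 the organs did not overlap.

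All 12 tested genes of primary wall cellulose synthesis rose, with a median of 1.25. CESA2, a subunit of cellulose synthase, had 99, 109 and 133 FPKM in hypocotyls and 17, 13.2 and 16.5 FPKM in cotyledons (2.79 ± 0.12, adjusted p 1.4e-11). CTL1, a chitinase-like protein needed for cellulose assembly, rose by 2.52, and KOR1, the membrane endoglucanase of the complex, by 1.76. Of 14 tested wall glycoproteins 13 rose, with a median of 3.34. FLA13, a fasciclin-like arabinogalactan protein, had 806, 628 and 794 FPKM in hypocotyls and 4.28, 4.01 and 4.86 FPKM in cotyledons (7.10 ± 0.32, adjusted p 2.66e-11), and PRP2 and EXT3, proline-rich and extensin structural proteins, rose by 6.62 and 5.31. FLA1 was not called (0.30 ± 0.16, adjusted p 0.102), but was called higher after median-ratio scaling (adjusted p 0.0343) and without cotyledon replicate 3 (adjusted p 0.00958). Of 15 tested tubulins 13 rose, with a median of 1.0, led by TUB1 (2.77 ± 0.36, adjusted p 2.92e-06) and TUB8 (2.29). TUB2 fell (-0.60 ± 0.11, adjusted p 8.32e-05) and TUB3 was not called, though these 2 genes are near-identical and their split is uncertain.

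Water channels were mostly higher in the hypocotyl. Of 18 tested aquaporins 15 rose and 3 fell, with a median of 2.18. PIP2;4 (AT5G60660, chromosome 5, 24375368 to 24377206), of the plasma membrane, had 1061, 534 and 886 FPKM in hypocotyls and 2.08, 2.11 and 11.7 FPKM in cotyledons (7.33 ± 0.45, adjusted p 5.1e-10). TIP2;2, of the vacuole, had 1049, 714 and 856 FPKM in hypocotyls and 4.39, 6.23 and 9.48 FPKM in cotyledons (6.86 ± 0.49), and PIP1;5 had 1564, 818 and 1252 FPKM and 15.9, 15.6 and 35.2 FPKM. The falls ran from -1.01 for PIP2;5 to -0.69 for PIP2;8. Of 5 tested proton pump genes 1 rose and 3 fell. AHA2, a plasma membrane proton pump that acidifies the wall, had 424, 428 and 386 FPKM in hypocotyls and 63.8, 54.6 and 89.2 FPKM in cotyledons (2.59 ± 0.17, adjusted p 1.31e-09). Its paralogue AHA1 was not called, at 209, 243 and 196 FPKM in hypocotyls and 215, 226 and 233 FPKM in cotyledons (adjusted p 0.604), and AVP1, the vacuolar pyrophosphatase, fell (-0.68 ± 0.13, adjusted p 0.000251).

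Markers of the stem's vascular and barrier tissues were mostly higher in the hypocotyl. Of 10 tested endodermis genes 9 rose, against 37.1% of all genes, with a median of 6.0. CASP1, CASP5, PER64 and MYB36 reached 1 FPKM in at most 1 cotyledon library. They passed the filter mainly through the hypocotyl, which favours a rise. CASP2 to CASP5 rose by 6.24, 6.17, 5.83 and 6.76, and PER64, the peroxidase of Casparian strip lignin, had 201, 154 and 198 FPKM in hypocotyls and 0.314, 0.282 and 1.07 FPKM in cotyledons (6.92 ± 0.65, adjusted p 5.9e-08). MYB36, the factor that switches on the CASP genes, had 10.3, 12.2 and 15.5 FPKM in hypocotyls and 0.0558, 0.125 and 0.414 FPKM in cotyledons (3.5). SHR, which specifies the endodermis from the stele, rose by 1.45, while SCR, its partner, stood at 22.7, 31.6 and 27.4 FPKM in hypocotyls and 22.1, 20.5 and 22.3 FPKM in cotyledons and rose by 0.31. GSO1, a receptor that seals the strip, was not called (0.23 ± 0.17, adjusted p 0.213).

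All 23 tested xylem and secondary wall genes rose, with a median of 2.57. FRA8, of xylan synthesis, had 29.9, 37.8 and 31.4 FPKM in hypocotyls and 0.950, 0.464 and 0.797 FPKM in cotyledons (4.3 ± 0.25, adjusted p 2.85e-10). XCP1, a protease of dying vessel cells, had 107, 97.6 and 111 FPKM in hypocotyls and 6.77, 4.46 and 7.82 FPKM in cotyledons (3.88 ± 0.15), and FLA12 rose by 3.95. Of 14 tested monolignol genes, which make lignin units, 13 rose, led by PAL4 (3.67 ± 0.13, adjusted p 2.63e-12), 4CL2 (3.29) and PAL1 (2.67). FAH1, of the branch to syringyl lignin and sinapate esters, was the member that fell, at 1.0, 2.1 and 1.45 FPKM in hypocotyls and 4.69, 5.62 and 5.95 FPKM in cotyledons (-1.37 ± 0.16, adjusted p 1.12e-06). Of 11 tested phloem genes 7 rose and 1 fell. The sieve element proteins SEOR2 and SEOR1 rose by 4.28 and 3.93, the sugar exporter SWEET12 had 188, 183 and 202 FPKM in hypocotyls and 21.2, 26.3 and 23.1 FPKM in cotyledons (2.97 ± 0.23), and PP2-A1, a phloem lectin, fell (-1.17 ± 0.23, adjusted p 0.000173).

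**Figure D4:**
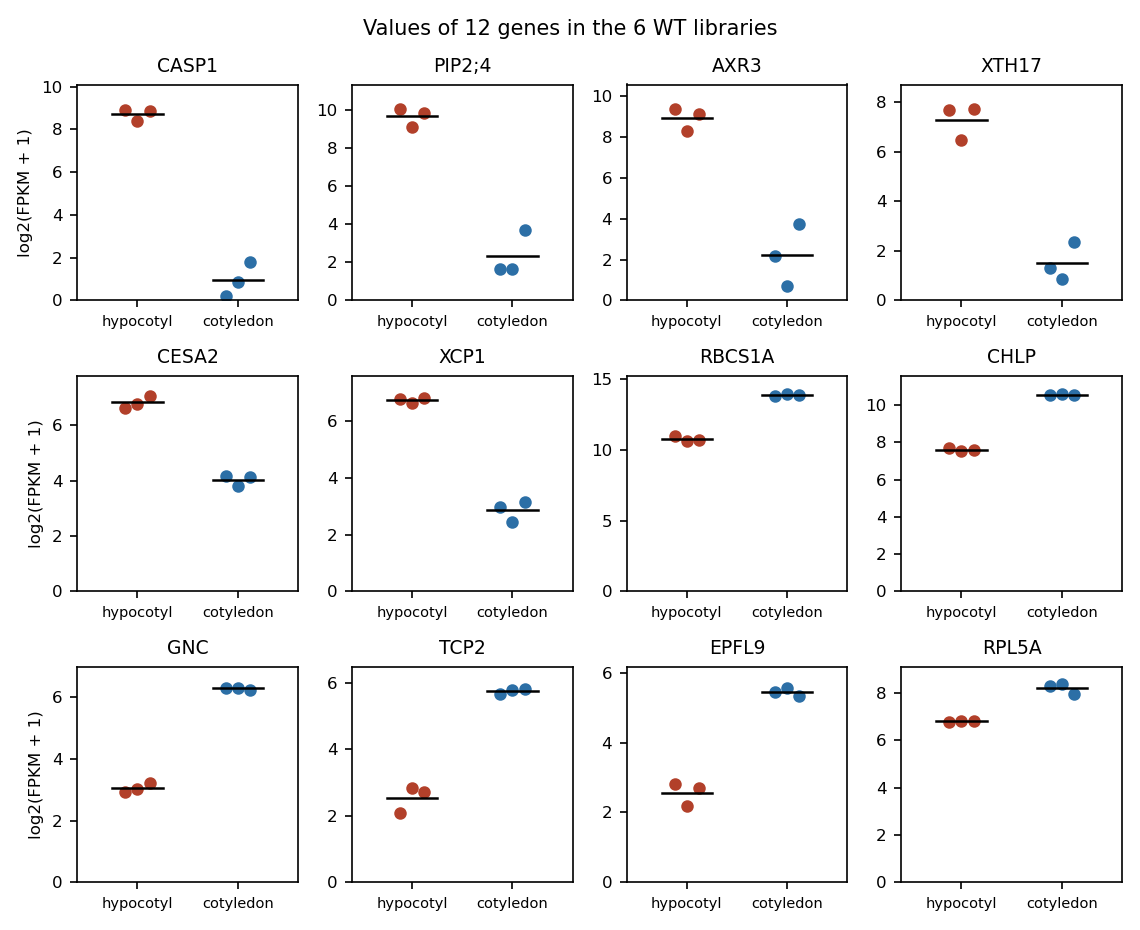
Level of 12 genes in each of the 6 WT libraries (points, log2(FPKM + 1), axes from 0), with hypocotyl at the left and cotyledon at the right of each panel; black bars are means over 3 libraries and points run from replicate 1 to 3. The 2 organs do not overlap in any panel, and cotyledon replicate 3 is the highest cotyledon point for CASP1, PIP2;4, AXR3 and XTH17.

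Auxin response genes were mostly higher in the hypocotyl. Of 17 tested Aux/IAA and GH3 genes, the early targets that restrain auxin response, 14 rose and 1 fell, with a median of 1.42. AXR3 (AT1G04250, chromosome 1, 1136078 to 1138663) had 651, 313 and 549 FPKM in hypocotyls and 3.58, 0.658 and 12.1 FPKM in cotyledons (6.70 ± 0.55, adjusted p 1.19e-08). IAA7 had 366, 244 and 328 FPKM in hypocotyls and 8.33, 6.33 and 21.3 FPKM in cotyledons (4.75 ± 0.30), and IAA19 had 50.2, 18.4 and 61.0 FPKM and 1.07, 0.457 and 4.08 FPKM (3.99 ± 0.40, adjusted p 1.3e-07). For each of them hypocotyl replicate 2 was the lowest hypocotyl library and cotyledon replicate 3 the highest cotyledon library. IAA20, a stable member without the degron, had 6.85, 3.00 and 8.01 FPKM in hypocotyls and 31.7, 37.0 and 30.4 FPKM in cotyledons (-2.37 ± 0.25, adjusted p 2.99e-07), and IAA4 was not called.

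The auxin response element TGTCTC was looked for on both strands in the 250 bases before each annotated gene start in TAIR10.1, since 14 of the 17 tested Aux/IAA and GH3 genes rose. It stood in 7 of 17 tested Aux/IAA and GH3 windows (41.2%), against 1867 of 17696 tested nuclear genes (10.6%). Among genes called at least 4-fold higher it stood in 10.8% of 1459 windows and among those at least 4-fold lower in 11.4% of 1022. The window of IAA19, the called member with the largest difference among those that hold the element and no other annotated gene, is given with its TGTCTC copies and a G-box, CACGTG, in capitals (chr3:5263751-5264000, plus strand). It held 3 copies of the element and 1 G-box.
IAA19: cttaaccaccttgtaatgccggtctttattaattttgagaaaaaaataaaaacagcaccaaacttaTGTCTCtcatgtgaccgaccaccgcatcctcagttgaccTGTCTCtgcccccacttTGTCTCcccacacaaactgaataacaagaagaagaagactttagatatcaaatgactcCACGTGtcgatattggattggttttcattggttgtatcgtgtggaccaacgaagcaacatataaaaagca

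Of 20 tested SAUR genes, small auxin-induced proteins that promote expansion, 14 rose and 5 fell, with a median of 1.76. SAUR24 and SAUR20 rose by 2.65 and 2.2, near-identical copies whose split is uncertain, and SAUR9 had 5.02, 2.0 and 6.46 FPKM in hypocotyls and 0.0821, 0 and 0.365 FPKM in cotyledons (2.17 ± 0.28, adjusted p 3.05e-06). SAUR17 and SAUR51 ran the other way, with 6.03, 3.36 and 13.2 FPKM in hypocotyls and 38.9, 40.5 and 40.1 FPKM in cotyledons for SAUR17 (-2.43 ± 0.35, adjusted p 8.06e-06) and a difference of -2.41 for SAUR51. Of 24 tested genes of auxin synthesis and transport 15 rose and 2 fell. WAG2 and WAG1, kinases that set the polarity of auxin efflux, rose by 3.65 and 3.55. Synthesis genes divided: YUC9 had 6.63, 3.41 and 4.42 FPKM in hypocotyls and 0.187, 0.105 and 0.104 FPKM in cotyledons (2.33 ± 0.25, adjusted p 3.45e-07), while TAR2 had 1.63, 2.25 and 1.55 FPKM and 9.05, 11.5 and 10.1 FPKM (-2.0 ± 0.16, adjusted p 6.95e-09) and YUC4 fell by 0.76.

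Brassinosteroid genes rose in 15 of 19 tested members and fell in 2, with a median of 1.37. ROT3, a cytochrome P450 of brassinosteroid synthesis, had 64.6, 64.0 and 72.7 FPKM in hypocotyls and 2.61, 2.0 and 3.85 FPKM in cotyledons (4.18 ± 0.19, adjusted p 2.52e-11). DWF4, the rate-limiting step, had 19.2, 14.3 and 21.8 FPKM in hypocotyls and 3.37, 3.25 and 2.92 FPKM in cotyledons (2.2 ± 0.14). CPD and DWF1, of the same pathway, fell by 0.40 and 0.25, and DWF1 lost its call in 5 alternatives (adjusted p 0.0521 to 0.155). Of 23 tested gibberellin genes 10 rose and 5 fell, against 37.1% of all genes higher and 39.4% lower, so the rises lay near the background. Both synthesis and breakdown were among the rises, with GA20OX1, a late synthesis enzyme, at 4.74, 6.41 and 7.52 FPKM in hypocotyls and 0.900, 0.860 and 1.0 FPKM in cotyledons (1.89 ± 0.21) and GA2OX7, an inactivating enzyme, at 12.1, 22.7 and 22.2 FPKM and 0, 0 and 0.0950 FPKM (4.23 ± 0.27, adjusted p 8.96e-10). KAO2 and KAO1, earlier synthesis steps, fell by 1.49 and 1.17. GASA1, a gibberellin-responsive peptide, had 762, 468 and 648 FPKM in hypocotyls and 17.8, 16.6 and 30.9 FPKM in cotyledons (4.81 ± 0.36), one of 5 rises among 6 tested GASA genes.

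Of 21 tested ethylene and hook genes 11 rose and 3 fell, with a median of 0.24. ACS5, an ethylene synthesis enzyme, had 17.4, 10.6 and 18 FPKM in hypocotyls and 0.164, 0 and 1.25 FPKM in cotyledons (3.53 ± 0.30, adjusted p 2.12e-08). HLS1, the acetyltransferase-like protein that keeps the apical hook bent, had 6.2, 5.2 and 10.7 FPKM in hypocotyls, 24.0, 14.2 and 20.1 FPKM in hooks and 34.6, 35.3 and 36.6 FPKM in cotyledons (-2.18 ± 0.23, adjusted p 1.98e-07). Among 12 tested growth-related helix-loop-helix and HD-ZIP II genes 8 rose and 3 fell. PRE1, which promotes elongation, rose by 2.49 and IBH1, its antagonist, by 5.22, with IBH1 at 59.6, 36.7 and 57.1 FPKM in hypocotyls and 0.321, 0.240 and 0.571 FPKM in cotyledons. PAR1, a repressor induced by shade, fell (-1.97 ± 0.32, adjusted p 3.03e-05), and so did HAT3 (-1.61).

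Every tested gene of the light-harvesting antenna (20), the photosystem core and electron transport (31), the Calvin cycle (19) and the regulators of plastid genes (10) was lower in the hypocotyl, against 39.4% of all genes. Their medians were -2.66, -2.65, -2.69 and -2.51. RBCS1A (AT1G67090, chromosome 1, 25048158 to 25049667), the small subunit of Rubisco, had 2030.3, 1561 and 1675 FPKM in hypocotyls and 13987, 15845 and 15149.8 FPKM in cotyledons (-3.10 ± 0.23, adjusted p 3e-09). GAPB, of the Calvin cycle, had 51.4, 61.5 and 53.6 FPKM in hypocotyls and 429, 493 and 474 FPKM in cotyledons (-3.05 ± 0.19). PSAH1, a subunit of photosystem I, had 30.3, 28.3 and 37.0 FPKM in hypocotyls and 221, 244 and 272 FPKM in cotyledons (-2.91 ± 0.18, adjusted p 4.84e-10). No hypocotyl value of these genes came near a cotyledon value.

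LHCB2.1, an antenna protein of photosystem II, had 53.0, 106 and 71.7 FPKM in hypocotyls and 570.2, 706 and 779.5 FPKM in cotyledons (-3.18 ± 0.24, adjusted p 4.72e-09). Its reads may be shared with LHCB2.2 (-3.13), and those of LHCB1.2 (-2.98) and LHCB1.3 (-2.87) with each other. Of 29 tested chlorophyll and haem genes 27 fell and 1 rose, with a median of -2.23. CHLP, which makes the phytol tail of chlorophyll, had 203, 184 and 191 FPKM in hypocotyls and 1506, 1524 and 1480.1 FPKM in cotyledons (-2.96 ± 0.20), and PORA, the light-dependent reductase of dark-grown seedlings, had 216, 203 and 227 FPKM and 1546, 1690.3 and 1513 FPKM (-2.87 ± 0.28, adjusted p 1.04e-07). FC1, the ferrochelatase of the haem branch, was the member that rose, at 79.7, 54.7 and 48.8 FPKM in hypocotyls and 24.3, 18.6 and 21.3 FPKM in cotyledons (1.45 ± 0.18, adjusted p 1.41e-06). HY1, the haem oxygenase of phytochrome chromophore synthesis, was not called (0.07 ± 0.10, adjusted p 0.513). Both lie on the haem side of the pathway.

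The regulators GNC, a GATA factor, and GLK1, a GARP factor, which both drive chloroplast genes, had 6.51, 7.10 and 8.23 and 4.58, 6.34 and 3.91 FPKM in hypocotyls, against 77.2, 77.1 and 73.7 and 46.4, 46.1 and 42.2 FPKM in cotyledons. Their differences were -3.22 ± 0.16 (adjusted p 6.34e-11) and -2.97 ± 0.18 (adjusted p 4.55e-10). Of the 115 tested chloroplast-encoded genes 108 were lower and 0 higher by limma, with a median of -2.22, and their summed level was 1951 to 3433 FPKM in hypocotyls and 12602 to 18292 FPKM in cotyledons. Of the 34 tested mitochondrion-encoded genes 1 rose and 1 fell. Organelle transcripts are mostly not polyadenylated, so these levels depend on how RNA was selected. When organelle-encoded genes were left out and the nuclear values rescaled, the nuclear plastid lists gave the same counts.

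The G-box CACGTG, a site bound by PIFs and other light regulators, and the I-box GATAAG were looked for in the same 250-base windows. The G-box, which reads alike on both strands, stood in 5 of 20 antenna windows (25%), 5 of 31 photosystem windows (16.1%) and 1358 of all 17696 (7.67%). The I-box or its complement stood in 8 of 31 photosystem windows (25.8%) and 12.5% of all. Over all genes at least 4-fold lower in the hypocotyl the shares were 9.69% and 16.5%, and over those at least 4-fold higher 5.28% and 11.9%. Neither motif was confined to lists that fell. Among lists that mostly rose, the G-box stood in 4 of 17 Aux/IAA and GH3 windows (23.5%). It stood in 0 of 10 endodermis, 0 of 18 aquaporin and 1 of 23 xylem windows. The I-box stood in 3 of 10 endodermis windows, a higher share than in the photosystem list. It stood in 1 of 17 Aux/IAA and GH3, 2 of 18 aquaporin and 2 of 23 xylem windows. The windows of LHCB2.3 (chr3:10255656-10255905, plus strand), with 1 G-box, and PSBQ2 (chr4:2673244-2673493, minus strand), with 2 G-boxes and 1 I-box, are given with these motifs in capitals. They were picked as the members with the largest difference that hold the motif and no other annotated gene.
LHCB2.3: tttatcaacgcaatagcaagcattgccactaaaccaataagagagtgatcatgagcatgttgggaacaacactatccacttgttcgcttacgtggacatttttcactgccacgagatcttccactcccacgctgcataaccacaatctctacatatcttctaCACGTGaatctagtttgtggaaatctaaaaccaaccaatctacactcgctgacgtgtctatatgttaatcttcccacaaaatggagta
PSBQ2: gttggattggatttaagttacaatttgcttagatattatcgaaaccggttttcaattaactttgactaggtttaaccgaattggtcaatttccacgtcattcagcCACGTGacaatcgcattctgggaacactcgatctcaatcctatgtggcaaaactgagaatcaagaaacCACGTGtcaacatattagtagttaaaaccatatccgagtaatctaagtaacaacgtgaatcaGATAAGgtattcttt

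Genes that turn seed oil into sugar were mostly lower in the hypocotyl. Of 22 tested genes of storage lipid use 16 fell and 2 rose, with a median of -0.92. ICL, isocitrate lyase of the glyoxylate cycle, was among the 8 highest cotyledon genes, with 592, 1089 and 652 FPKM in hypocotyls and 6082, 7408 and 6009.7 FPKM in cotyledons (-3.11 ± 0.24, adjusted p 5.5e-09). PMDH2, peroxisomal malate dehydrogenase, fell by 2.81 on the log2 scale and KAT5, a thiolase of fatty acid breakdown, fell by 2.88. The enzymes of beta-oxidation itself did not all follow: AIM1 and LACS6 rose (0.36 and 0.32), and ACX4 was not called, with 150.4, 129 and 142 FPKM in hypocotyls and 152, 152 and 145 FPKM in cotyledons. Of 12 tested seed storage and oil body genes 1 rose, 3 fell and 8 were not called, and without hypocotyl replicate 2, which held storage transcripts, 7 fell. OLEO3, an oleosin, had 31.7, 21.0 and 33.5 FPKM in hypocotyls and 120.2, 148 and 135 FPKM in cotyledons (-2.21 ± 0.14, adjusted p 8.13e-10).

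Sugar genes split evenly, 6 rising and 6 falling of 12. BFRUCT3, a vacuolar invertase, had 205, 257 and 219 FPKM in hypocotyls and 5.64, 4.86 and 12.2 FPKM in cotyledons (4.83 ± 0.25, adjusted p 8.13e-11), and CWINV1, a wall invertase, rose by 1.33. SUC1, a sucrose importer, had 14.4, 22.8 and 19.6 FPKM in hypocotyls and 113, 114 and 115 FPKM in cotyledons (-2.55 ± 0.19), and GBSS1, of amylose synthesis, fell by 2.99. GPT2, a plastid hexose phosphate carrier, had 4.58, 22.8 and 5.93 FPKM in hypocotyls and 74.5, 81.3 and 79.5 FPKM in cotyledons (-3.03 ± 0.56, adjusted p 0.000126). The rises were 3 sucrose synthases, 2 invertases and the hexose carrier STP1, and the falls were SUC1, GPT2 and 4 starch synthesis genes.

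Genes of leaf polarity and blade growth were mostly lower in the hypocotyl. Of 24 tested members 21 fell and 2 rose, with a median of -2.16. TCP2 and TCP10, which limit blade growth, had 3.25, 6.09 and 5.55 and 2.17, 2.11 and 2.14 FPKM in hypocotyls, against 49.6, 54.6 and 55.6 and 23.1, 23.4 and 22.2 FPKM in cotyledons. FIL, a YABBY factor of the lower leaf side, had 5.57, 11.3 and 10.2 FPKM in hypocotyls and 69.6, 79.8 and 76.2 FPKM in cotyledons (-2.97 ± 0.19, adjusted p 8.19e-10). REV, an HD-ZIP III factor that also patterns stem vasculature, rose (0.69 ± 0.11, adjusted p 2.8e-05), and its relative PHV was not called. KAN1 rose by 0.33 and lost its call in 6 alternatives (adjusted p 0.0519 to 0.168). KNAT1, a KNOX factor of stems and meristems, had 37.6, 52.7 and 53.7 FPKM in hypocotyls and 2.22, 2.52 and 4.69 FPKM in cotyledons (3.59 ± 0.24, adjusted p 1.24e-09), while STM, the meristem KNOX factor, had 2.02, 1.27 and 1.46 FPKM and 4.3, 2.81 and 5.21 FPKM and fell by 0.97.

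In the stomatal lineage EPFL9, the peptide that promotes stomata, had 6.03, 3.52 and 5.46 FPKM in hypocotyls and 42.8, 45.9 and 39.2 FPKM in cotyledons (-2.88 ± 0.27, adjusted p 4.98e-08), and the receptor TMM and the factor SCRM2 fell by 2.56 and 2.33. The 2 members that rose were MYB88, at 15.3, 13.6 and 17.4 FPKM in hypocotyls and 0.360, 0.404 and 0.517 FPKM in cotyledons (3.52 ± 0.17, adjusted p 5.28e-11), and its relative FLP (0.67), both of which stop guard cell divisions. Epidermal lipid genes divided, 12 rising and 7 falling of 22. WSD1, a wax ester synthase, had 95.6, 74.3 and 104 FPKM in hypocotyls and 0.0749, 0.421 and 0.389 FPKM in cotyledons (6.15 ± 0.36), and CYP86A2 and KCS1, of cutin and very-long-chain fatty acid synthesis, rose by 3.36 and 3.19. LTP1, HTH and LACS2 fell by 1.53, 1.5 and 1.26.

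Cell cycle genes moved in both directions. Of 27 tested division genes 15 rose and 5 fell, with a median of 0.41. CYCB1;3, a mitotic cyclin, had 5.43, 6.02 and 6.04 FPKM in hypocotyls and 0.746, 0.907 and 0.380 FPKM in cotyledons (2.04 ± 0.13, adjusted p 6.42e-10), and CDKB2;1, a mitotic kinase, rose by 2.0. CYCD3;2, a D-type cyclin that keeps leaf cells dividing, had 12.1, 15.8 and 16.2 FPKM in hypocotyls and 90.3, 91.6 and 85.8 FPKM in cotyledons (-2.53 ± 0.14). Of 11 tested inhibitors and endoreduplication genes 7 rose, among them KRP2 (1.85) and SIM (1.6), and KRP1 fell by 1.27. Ribosomal protein genes of the cytosol fell in all 16 tested members, with a median of -1.07. RPL5A had 108, 110.5 and 113 FPKM in hypocotyls and 314, 328 and 245 FPKM in cotyledons (-1.40 ± 0.11, adjusted p 1.23e-08), and RPS13A and RPS5A fell by 1.23 and 1.22.

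The site II motif TGGGCC, common before ribosomal protein genes, stood in 9 of 16 windows of this list on either strand (56.2%), against 3042 of all 17696 (17.2%). It stood in 4.80% of the windows of genes at least 4-fold higher in the hypocotyl and in 19.8% of those at least 4-fold lower. RPS6B, chosen by the same rule as above, is given with its 3 copies in capitals, the first 2 of which overlap (chr5:3260255-3260504, minus strand).
RPS6B: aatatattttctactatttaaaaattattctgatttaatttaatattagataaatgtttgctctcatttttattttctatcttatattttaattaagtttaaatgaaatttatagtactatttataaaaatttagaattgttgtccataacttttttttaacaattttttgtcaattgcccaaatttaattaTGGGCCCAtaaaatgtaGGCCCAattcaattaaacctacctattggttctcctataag

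Of 5 tested PIF genes 2 were lower in the hypocotyl and 3 were not called, near the background of 39.4% of all genes lower. PIF3 (AT1G09530, chromosome 1, 3075768 to 3079654) had 59.2, 56.2 and 40.1 FPKM in hypocotyls and 57.7, 52.7 and 52.9 FPKM in cotyledons and was not called (-0.09 ± 0.14, adjusted p 0.568). PIF1 had 4.95, 9.98 and 10.3 FPKM in hypocotyls and 9.68, 11.4 and 10.9 FPKM in cotyledons and was not called (-0.36 ± 0.20, adjusted p 0.109), but passed without hypocotyl replicate 2 (adjusted p 0.0448) or 3 (adjusted p 0.0342). PIF4 and PIF5 fell by 0.67 and 0.63 (adjusted p 0.00284 and 0.000966), with PIF4 at 4.51, 7.95 and 6.45 FPKM in hypocotyls and 9.57, 9.70 and 12.1 FPKM in cotyledons. PIF7 stood at 0.142, 0.481 and 0.178 FPKM in hypocotyls and 0.277, 0.266 and 0.323 FPKM in cotyledons and did not pass the filter.

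Of 34 tested photoreceptor and light signalling genes 19 fell and 8 rose. BBX23, a B-box protein of greening seedlings, had 6.71, 2.61 and 5.22 FPKM in hypocotyls and 43.0, 46.0 and 36.2 FPKM in cotyledons (-2.93 ± 0.26, adjusted p 2.49e-08), and PHOT2, a blue light receptor, fell by 2.12. PKS1, a phototropism protein, had 12.2, 17.3 and 15.5 FPKM in hypocotyls and 3.67, 2.94 and 3.93 FPKM in cotyledons (1.82 ± 0.16). Of 15 tested clock genes 11 fell and 1 rose, with PRR9 (-2.05) and ELF3 (-1.25) among the falls and CHE (2.19) the rise. Of 12 tested flavonoid genes 10 fell, led after the regulators above by CHS, chalcone synthase, with 15.6, 63.8 and 38.1 FPKM in hypocotyls and 259.9, 350.1 and 305 FPKM in cotyledons (-3.13 ± 0.35, adjusted p 5.72e-07). MYB12, a relative of MYB111, was the member that rose (0.78 ± 0.29, adjusted p 0.023), and it lost its call without hypocotyl replicate 2 (adjusted p 0.118) or cotyledon replicate 2 (adjusted p 0.0922).

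Glucosinolate genes rose in 14 of 17 tested members and fell in 3. The rises included CYP83B1, a synthesis enzyme, with 148, 136 and 173 FPKM in hypocotyls and 21.0, 22.1 and 25.1 FPKM in cotyledons (2.69 ± 0.16, adjusted p 3.24e-10), and MYB28, a regulator of the aliphatic branch (2.41). The falls included the myrosinases TGG1 and TGG2, which break glucosinolates down, with TGG1 at 67.3, 49.2 and 59.0 FPKM in hypocotyls and 459, 475 and 399.8 FPKM in cotyledons (-2.91 ± 0.38) and TGG2 at -2.87. Of 12 tested jasmonate genes 7 rose and 1 fell. VSP1, a jasmonate-induced storage protein, had 8.83, 9.87 and 10.2 FPKM in hypocotyls and 0.0577, 0.0432 and 0 FPKM in cotyledons (3.36 ± 0.20, adjusted p 3.28e-10), and AOC1, of jasmonate synthesis, fell by 1.62.

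The apical hook is the bent top of the hypocotyl. Genes lower in the hypocotyl had hook means between the organs above the background share, and higher genes near it. Hook libraries were compared with the same WT hypocotyl and cotyledon libraries, so these values are given side by side only. Hook means lay between the hypocotyl and cotyledon means for 4068 of the 6627 genes higher in the hypocotyl (61.4%) and for 5355 of the 7043 lower ones (76.0%), against 56.3% of all genes tested. The hook mean was above both organs for 1766 of the higher and 1279 of the lower genes, and at or below both for 793 and 409. CASP1 had 481, 329 and 463 FPKM in hypocotyls, 15.7, 10.4 and 3.46 FPKM in hooks and 0.171, 0.831 and 2.47 FPKM in cotyledons. EXPA11 had 401, 602 and 579 FPKM in hooks, above every hypocotyl library, though hypocotyl minus hook was not called (-0.79 ± 0.40, adjusted p 0.0964). RBCS1A had 5263, 3991 and 3378 FPKM in hooks, between its values in hypocotyls and cotyledons. 

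In pifq many organ differences of WT were found again, in shares that depend on the scale. The pifq means come from other libraries than the WT means. Both contrasts share the error estimate of 1 fit, so their calls are not independent. Of all genes 9011 (50.4%) were higher and 4025 (22.5%) lower in pifq hypocotyls than in pifq cotyledons, 72.9% in all. Of the 6627 genes higher in WT hypocotyls, 5768 (87.0%) were also called higher in pifq and 151 were called lower. Of the 7043 lower in WT hypocotyls, 3484 (49.5%) were also called lower in pifq and 1111 (15.8%) were called higher. These shares rest on the scale: the median pifq difference over all genes was 0.33, and after median-ratio scaling, which brought it to 0.02, 71.7% of the WT-higher and 68.8% of the WT-lower genes had the same call. After that scaling 431 of 7138 WT-higher and 361 of 6541 WT-lower genes had the opposite call. Without hypocotyl replicate 2 the same-call counts were 5660 of 6467 and 3503 of 6965, and without cotyledon replicate 3 they were 5594 of 6349 and 3454 of 6857. With each genotype fitted alone they were 5463 of 6349 and 3379 of 6689. CASP1 had 151, 171 and 168 FPKM in pifq hypocotyls and 0.441, 0.771 and 2.05 FPKM in pifq cotyledons (6.37 ± 0.81), and RBCS1A had 2329, 1408 and 1888 FPKM and 12026, 14219 and 14541 FPKM (-2.88 ± 0.23, adjusted p 8.76e-09).

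**Figure D5:**
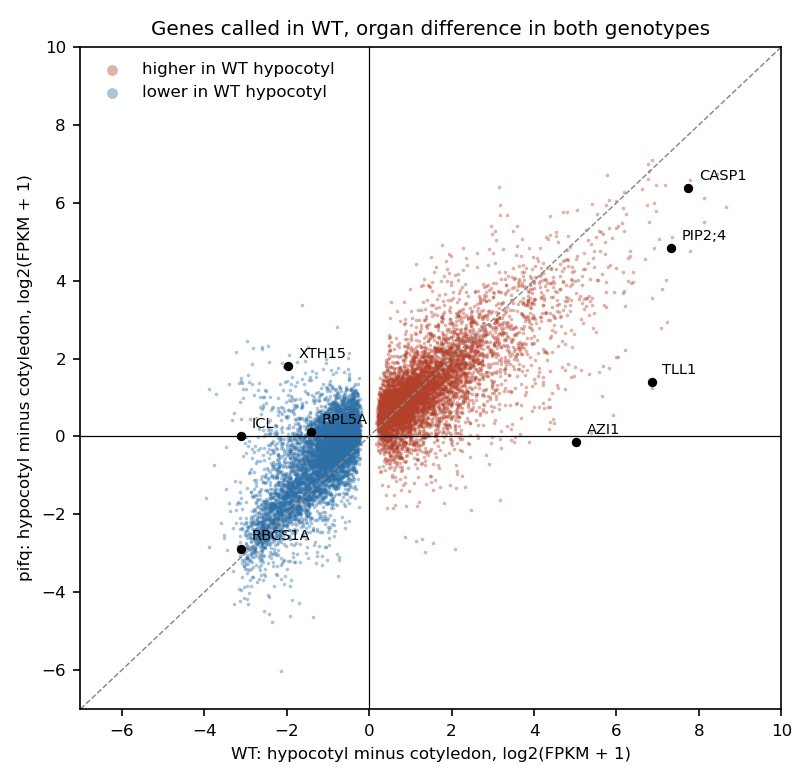
Hypocotyl minus cotyledon in pifq (vertical axis) against the same difference in WT (horizontal axis), both in log2(FPKM + 1), for the genes called higher (red) or lower (blue) in WT; the dashed line marks equal differences. RBCS1A lies near the line, and TLL1, AZI1, XTH15 and ICL lie far from it.

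The organ difference itself differed between genotypes in 8370 genes (46.8%), tested as pifq hypocotyl minus cotyledon, minus the same in WT. It was more positive in pifq for 6426 (36.0%) and more negative for 1944 (10.9%), but after median-ratio scaling the split was 2837 and 4287, so the direction over all genes depends on the scale. Without hypocotyl replicate 2 of WT 8366 genes were called, and without cotyledon replicate 3 of WT 7826. The 16 cytosolic ribosome genes all had a positive interaction, and 15 after median-ratio scaling. RPL5A had 224, 217 and 191 FPKM in pifq hypocotyls and 181, 197 and 203 FPKM in pifq cotyledons, a difference of 0.12 ± 0.11, against -1.40 ± 0.11 in WT. Photosynthesis lists kept their organ difference, with all 20 antenna, 31 photosystem and 19 Calvin cycle genes lower in pifq hypocotyls too. Of 22 storage lipid genes 18 had a positive interaction, or 11 after median-ratio scaling. ICL had 424, 465 and 388 FPKM in pifq hypocotyls and 469.7, 367 and 444 FPKM in pifq cotyledons and was not called there, and in WT its difference was -3.11 ± 0.24.

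Some genes had a much smaller or an opposite organ difference in pifq. AZI1, of systemic defence priming, had 27.5, 23.2 and 7.37 FPKM in pifq hypocotyls and 23.2, 16.2 and 18 FPKM in pifq cotyledons, against 917, 1106 and 957 FPKM in WT hypocotyls and 21.5, 35.5 and 33.1 FPKM in WT cotyledons. TLL1, a lipase-like gene, had 241, 223 and 281 FPKM in pifq hypocotyls and 92.4, 102 and 86.4 FPKM in pifq cotyledons, against 237, 165 and 259.6 FPKM and 0.490, 0.579 and 1.84 FPKM in the WT organs. AZI1 was low in the hypocotyls of pifq and its organs were not called different there, while TLL1 was high in the cotyledons of pifq and was still called higher in the hypocotyl. Their interactions were -5.18 ± 0.59 (adjusted p 6.15e-06) and -5.46 ± 0.32 (adjusted p 1.56e-08). XTH15 was higher in the hypocotyl in pifq and lower in WT, with 15.9, 13.0 and 12 FPKM in pifq hypocotyls and 2.69, 1.81 and 5.99 FPKM in pifq cotyledons (interaction 3.76 ± 0.43, adjusted p 6.62e-06). Of the 18 tested aquaporins 11 had a negative interaction (14 after median-ratio scaling), PIP2;4 among them at 76.9, 91.7 and 65.4 FPKM in pifq hypocotyls and 1.72, 1.51 and 1.99 FPKM in pifq cotyledons (-2.49 ± 0.63, adjusted p 0.0045).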

How the data were processed

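The authors deposited 1 FPKM value per gene and library. No header names a unit, and FPKM was inferred from the numbers themselves. Multiplied by exon length in TAIR10.1, 99.37% to 99.50% of values under 100 reads are whole (tolerance 0.05 reads). TAIR10, HISAT2 and DESeq2 are named per the submitters' processing notes, with roles and versions not given in the sources used here. Per the labels' protocols the kit was NEBNext Ultra RNA, which does not mark strand. Reads of near-identical copies (LHCB, RBCS, SAUR and tubulin genes) are uncertain.

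Computed here: limma 3.58.1 (R 4.3.3) with trend on log2(FPKM + 1), 18 libraries in 1 fit of 6 group means, genes with at least 1 FPKM in 3 of the 6 WT libraries, adjusted p under 0.05. The design had foreseen counts or FPKM. The fit was tested on simulated data. Tests adjust over all 17874 genes. The members and the 41 lists (772 of 786 members used, 678 tested) were chosen with earlier results of these data known. A rule named 256 genes: the 12 largest rises and falls, up to 3 of each list and direction with its highest uncalled member, PIFs, HLS1, the largest interactions and the highest levels. The 12 largest rises and falls were taken from called nuclear genes above a minimum level whose organs do not overlap. CRA1, OLEO2, WOX5, SMB, CASP2 to CASP4, MYB36, SHR, SCR, PIF7 and the promoters shown were chosen after values were seen. Coordinates are RefSeq TAIR10.1. Alternatives were another pseudocount, filters, scalings, fits, a replicate block, limma-voom on reads recovered from the FPKM steps and each library left out. Replicate numbers do not pair the samples.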

Additional observations from a re-analysis of the deposited data

Results flagged for a closer look

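The organ difference differed between pifq and WT in 8370 genes, by limma's interaction test with Benjamini-Hochberg adjustment. Among the 6 named genes with a more positive difference in pifq, XTH15 stood at 3.76, AT5G42530 at 5.01, DAA1 at 4.02, AT1G04560 at 3.94, the subtilase gene AT5G59130 at 3.78 and OFP12, an ovate family protein, at 3.6. OFP12 averaged 18.6 ± 3.21 FPKM in pifq hypocotyls and 0.572 ± 0.148 FPKM in pifq cotyledons (SD, n = 3 each), against 2.37 ± 0.340 FPKM in WT hypocotyls and 2.3 ± 0.296 FPKM in WT cotyledons.

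Among the 6 named genes with a more negative difference in pifq, AT2G34700 stood at -5.62, TLL1 at -5.46, the acyltransferase gene AT2G25150 at -5.38, AT4G37220 at -5.30, AZI1 at -5.18 and the amino acid transporter gene AT3G54830 at -4.96. AT2G34700, of the Ole e 1 and extensin family, averaged 2.87 ± 1.22 FPKM in pifq hypocotyls and 0.624 ± 0.460 FPKM in pifq cotyledons, against 182 ± 38.5 FPKM in WT hypocotyls and 0.559 ± 0.174 FPKM in WT cotyledons. All 12 kept their sign and call under every alternative run that tested them. OFP12 was too low in WT to pass the filter of at least 5 FPKM.

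Lists with many positive interactions were the cytosolic ribosome with 16 of 16 tested genes, storage lipid use with 18 of 22, leaf polarity and blade growth with 15 of 24, and photoreceptors and light signalling with 18 of 34, against 36.0% of all genes. After median-ratio scaling these counts were 15, 11, 9 and 6, against 15.9% of all genes, and the last, 17.6%, is near that background.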

How the results depend on the processing

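The 4 main counts (6627 higher, 7043 lower, 9252 with the same call in pifq and 8370 interactions) stayed within 1.5 times of these values under every alternative run. Leaving out 1 library gave 6275 to 6467 higher, 6645 to 6965 lower, 8910 to 9163 and 7391 to 8366. Replicate numbers did not pair the samples (correlations of same-numbered libraries -0.060, 0.045 and 0.025 in WT and -0.014, -0.091 and 0.027 in pifq), and with a replicate block the counts were 6600, 7024, 9216 and 8170. Median-ratio scaling gave 7138 higher and 6541 lower in WT, and 6411 and 5989 in pifq. Of 256 named genes none reversed. Of 221 called, 215 kept their call in every alternative run that tested them, the exceptions being KRP4, DWF1, KAN1, KNAT2, MYB12 and PRP3. Low genes were not tested under the filter of at least 5 FPKM. LTP2, FLA1, JAR1, ELF4, PIN4, PAR2, AIL6, PIF1 and AT1G04560, not called, gained a call in at least 1 alternative. Values near 1 FPKM rest on few reads, where log2(FPKM + 1) understates a difference. The seed storage list had 7 lower genes without hypocotyl replicate 2, against 3.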

Other observations

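Families named by the annotation's product field showed directions that the lists above mostly do not cover. Of 38 tested peroxidase superfamily genes 34 were higher in the hypocotyl (89.5%, against 37.1% of all genes), with a median difference of 3.08 against -0.05 over all genes. Of 30 tested nodulin MtN21 and EamA-like transporter genes 25 were higher, as were 25 of 33 O-fucosyltransferase family genes and 16 of 20 Exostosin family genes, which act on wall and secreted glycans.

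Families that serve organelles ran the other way. Of 29 tested mitochondrial transcription termination factor genes, whose products act in mitochondria and plastids, 27 were lower in the hypocotyl, with a median of -1.04. Of 128 tested pentatricopeptide repeat superfamily genes, which process organelle transcripts, 110 were lower (85.9%) and 2 higher. Of 35 tested mitochondrial carrier genes 21 were lower (60%), a weaker lean. Over all genes 39.4% were lower. These families were picked after their values were seen, and no test of the families was made.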
